A study of Trichoderma reesei with 11 samples.

Results

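The effect of losing the HOG pathway kinase TR_57513 in constant light was measured by RNA sequencing of Trichoderma reesei, a mould that breaks down plant cell walls with secreted cellulases. The comparison took 6 of the 11 RNA libraries of the study, chosen by strain and light condition in the sample titles and not by any measured value. Of these, 3 came from the deletion strain (QM6a-delta-mus53-delta-57513) and 3 from its parent (QM6a-delta-mus53). Both strains lack mus53, a gene needed to join broken DNA ends without homology, whose loss favours targeted gene replacement, so the comparison says nothing about strains that carry mus53. Both were grown in minimal medium on cellulose at 28 °C for 96 h under constant light. Darkness libraries of the same strains, 3 of the deletion strain and 2 of the parent, were used for the shared estimate of the spread and for values set beside those in light. The labels do not say how many transformants of the deletion strain were used or whether the replicates were grown as separate cultures. The p-values therefore reflect the variation among these libraries alone, and part or all of it may be technical.

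The high-osmolarity glycerol (HOG) pathway is a MAP kinase cascade, best known from Saccharomyces cerevisiae. A MAP kinase kinase kinase phosphorylates a MAP kinase kinase, which activates the MAP kinase Hog1, and the cell then makes glycerol and adjusts transcription under osmotic stress. The series title names TR_57513 as a kinase at the first of these steps. In Trichoderma reesei, light acts through the photoreceptors BLR1, BLR2 and ENV1 and is known to influence cellulase gene expression on cellulose.

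The count table lists gene IDs without gene names. None of its 10879 IDs matched the 9116 genes of the RefSeq table for QM6a, so pathways could not be scored, and the level of TR_57513 itself could not be looked up as a check of the strain labels. Every ID consists of a series letter, a serial number and a final letter, apart from 3 mat1-1 rows with 1 count in all. The light libraries held 8924252 to 10184280 counts in the deletion strain and 8020351 to 8770166 counts in the parent. After a filter on low counts 9040 IDs were tested. Levels are given as CPM, read counts relative to a library total scaled by the trimmed mean of M values (TMM). They are not divided by gene length, so they are compared between libraries. Where IDs are ordered by CPM or by a difference in CPM, the order is of read counts, to which gene length contributes, and not of transcript levels. In bulk mycelium, fewer hyphae of one kind and less RNA per hypha cannot be told apart.

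The strains separated clearly in light. The first principal component of log2 CPM over the 6 light libraries held 69.3% of the variance. It placed the 3 deletion libraries between -51.7 and -43.5 and the 3 parent libraries between 42.4 and 49.4. The second component held 18% of the variance and spread mainly the parent, with replicate 1 at 46.5, replicate 2 at -11 and replicate 3 at -32.8. The deletion libraries lay closer together on it but in the same order, at 3.85, 0.369 and -6.98 for replicates 1, 2 and 3.

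Loss of TR_57513 in light was accompanied by a change in 2445 of the 9040 tested gene IDs, or 27.0%. Of these, 1258 rose in the deletion strain (13.9% of those tested) and 1187 fell (13.1%), by edgeR's quasi-likelihood test at a Benjamini-Hochberg adjusted p under 0.05. The CPM ranges of the 3 deletion and 3 parent libraries did not overlap for 4484 IDs (49.6%), with the deletion strain higher for 2252 and lower for 2232. Among the 2445 IDs that passed, 2426 had ranges that did not overlap. The 19 others comprised 1 that rose and 18 that fell. A further 2058 IDs had separate ranges and did not pass.

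**Figure D1:**
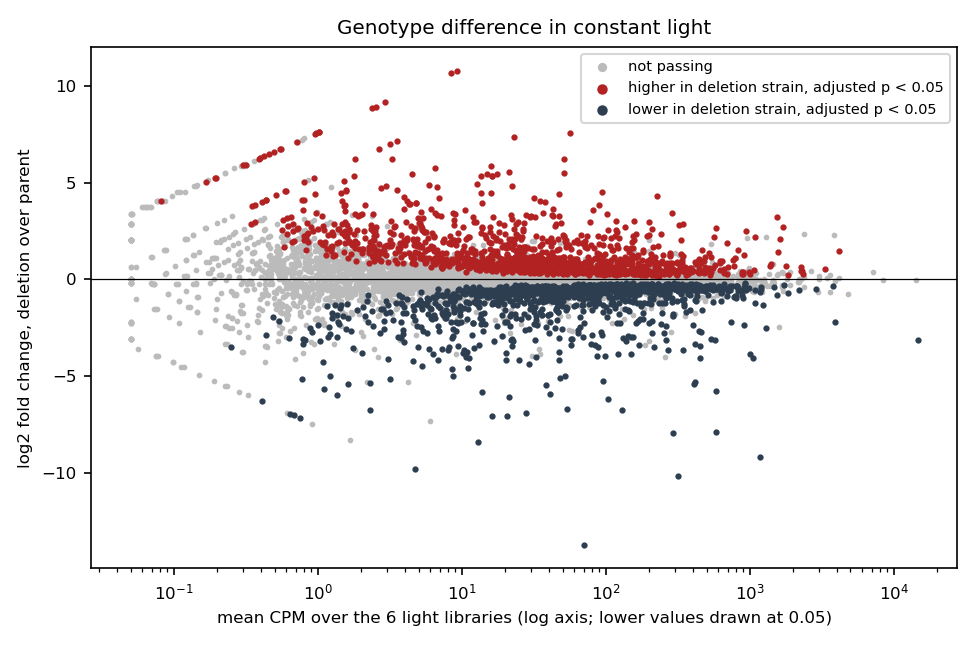
Each point is a gene ID, with its mean level over the 6 light libraries in CPM (log axis) and its log2 fold change of the deletion strain over the parent. The 1258 IDs that rose and the 1187 that fell spread over the whole range of levels, and the lowest point is TrA1495C, which has 0 counts in the deletion libraries and whose position depends on the prior count.

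These numbers depend on single libraries and on the scale. The number of passing IDs was 1521 without deletion replicate 2 and 1449 without deletion replicate 3 in light, of which 825 and 791 rose and 696 and 658 fell. With library totals alone as the scale, 1510 IDs rose and 875 fell, so that 63.3% of the passing IDs were increases against 51.5% with TMM, while the median log2 fold change of all tested IDs stood at 0.08.

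Among the IDs that passed, increases were the larger changes by their median. The medians were not compared at like levels, and the numbers by level follow below. The median IDs among those that rose and those that fell had log2 fold changes of 0.98 and -0.69, or 1.98-fold higher and 1.61-fold lower in the deletion strain. Over all tested IDs the median was 0 and the median size, regardless of direction, was 0.32. Below a 1.5-fold change, 337 IDs rose and 485 fell. Between 2-fold and 4-fold, 327 rose and 212 fell, and between 4-fold and 8-fold, 164 rose and 95 fell. Beyond 8-fold the numbers were 131 and 108, which include IDs with 0 counts in 1 strain, whose fitted fold depends on the prior count. Altogether 1037 IDs (11.5%) passed with a change of at least 2-fold, 622 of them rising (6.88%) and 415 falling (4.59%). These IDs were selected by the adjusted p and then by the fitted size, and 365 IDs, 222 rising and 143 falling, passed a test of whether the change exceeded 2-fold.

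The balance shifted with the level of the ID. In the lowest decile of mean level, up to 1.29 CPM, 78 IDs rose and 26 fell among 904. In the next decile, up to 5.23 CPM, 173 rose and 68 fell. In the highest decile, above 229.6 CPM, 136 rose and 211 fell. Among IDs that passed with a change of at least 2-fold, 78 rose and 26 fell in the lowest decile. The numbers were 163 and 63 in the next decile and 31 and 48 in the highest. The share that passed was 11.5% in the lowest decile and 38.4% in the highest. The median size of the passing changes, on the log2 scale, was 1.93 in the second-lowest decile and 0.52 in the highest. Precision differs across the deciles, because low levels rest on few counts. A floor of 3 counts corresponded to 0.270 to 0.311 CPM in a deletion library and 0.336 to 0.364 CPM in a parent library. Slightly lower levels could therefore register in the deletion libraries.

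**Figure D2:**
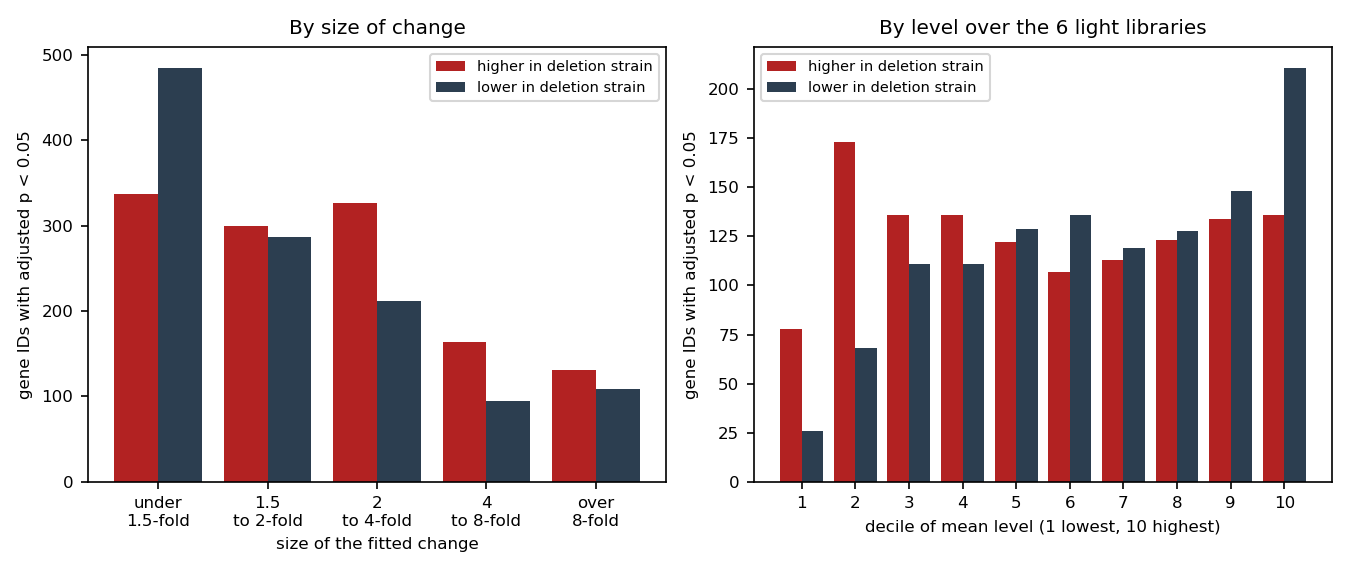
Bars give the number of gene IDs with an adjusted p under 0.05 that were higher (left bar of each pair) or lower (right bar) in the deletion strain, by size of the fitted change and by decile of mean level over the 6 light libraries. Decreases outnumber increases below 1.5-fold (485 and 337) and in the highest decile (211 and 136), and increases outnumber decreases from 2-fold upwards and in the 2 lowest deciles.

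The changes moved a sizeable part of the read counts, which are not divided by gene length. The IDs that rose took 18.4%, 18.8% and 20% of the counts in the deletion libraries, against 9.85%, 10.0% and 10.0% in the parent libraries. The IDs that fell took 14.7%, 14.4% and 13.1% in the deletion libraries, against 26.4%, 25.4% and 25.1% in the parent libraries. Since these IDs were chosen by their change, the shares describe its extent and test nothing. Of the IDs that fell, TrE0391W alone took 4.0%, 2.34% and 1.75% in the parent libraries and 0.463%, 0.395% and 0.137% in the deletion libraries. Its call was narrow, as described below.

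The IDs named next were chosen among those whose strain ranges in light did not overlap, as held for 49.6% of all tested IDs, so the lack of overlap is not a result. The first are the 2 rising and 2 falling IDs with the smallest adjusted p among those of at least 20 CPM and a change of at least 2-fold. TrD1013C stood at 45.6, 44.8 and 40.8 CPM in the deletion libraries, against 5.41, 6.68 and 4.71 CPM in the parent libraries. The ID was 7.82-fold higher in the deletion strain (log2 fold change 2.97, SE 0.13, edgeR adjusted p = 3.9e-06). In darkness it also rose, at 81.0 ± 4.67 CPM in the deletion strain (SD, n = 3) and 50.9 ± 1.0 CPM in the parent (SD, n = 2), with log2 fold change 0.67 (SE 0.13, edgeR adjusted p = 0.0108). Of the 4 groups, the parent in light was the low one.

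TrC0967C also had its low values in the parent in light, but no passing difference in darkness. It reached 1016, 978 and 1025 CPM in the deletion libraries in light, against 180.1, 152 and 153 CPM in the parent libraries. The ID was 6.22-fold higher (log2 fold change 2.64, SE 0.12, edgeR adjusted p = 3.9e-06). In darkness the difference was within the spread, at 1345 ± 96.5 CPM (SD, n = 3) in the deletion strain and 1315 ± 213 CPM (SD, n = 2) in the parent (log2 fold change 0.03, SE 0.12, edgeR adjusted p = 0.897). The genotype effect in light exceeded that in darkness by 2.61 on the log2 scale (SE 0.16, edgeR adjusted p = 0.000159), and for TrD1013C by 2.30 (SE 0.17, edgeR adjusted p = 0.000241).

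TrA1495C was at 0 counts in each of the 3 deletion libraries in light, against 143, 132 and 145 CPM in the parent libraries, a total of 3650 counts. Against a floor of 3 counts over the deletion group it was at least 1432-fold lower (edgeR adjusted p = 1.04e-05). In darkness it had 2 counts over the 3 deletion libraries and 2758 over the 2 parent libraries. Whether this ID is the deleted locus cannot be read from the file. No other ID at 0 counts in the deletion strain in light came near its level in the parent, the next standing at 9.46 CPM.

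TrC1338C fell to 2.43, 1.51 and 2.38 CPM in the deletion libraries, against 41.7, 35.8 and 37.2 CPM in the parent libraries. This was 18-fold lower (log2 fold change -4.17, SE 0.23, edgeR adjusted p = 1.04e-05). It was also lower in darkness, at 4.39 ± 0.68 CPM in the deletion strain (SD, n = 3) and 20.6 ± 4.92 CPM in the parent (SD, n = 2), with log2 fold change -2.23 (SE 0.21, edgeR adjusted p = 0.000425). The effect in light minus that in darkness was -1.94 (SE 0.31, edgeR adjusted p = 0.0053). The 4 IDs passed the threshold in light under all 23 alternatives run for each, with the adjusted p at most 0.000221. They were chosen by the smallest adjusted p, and the alternatives reuse the same libraries, so this was nearly fixed by the choice.

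**Figure D3:**
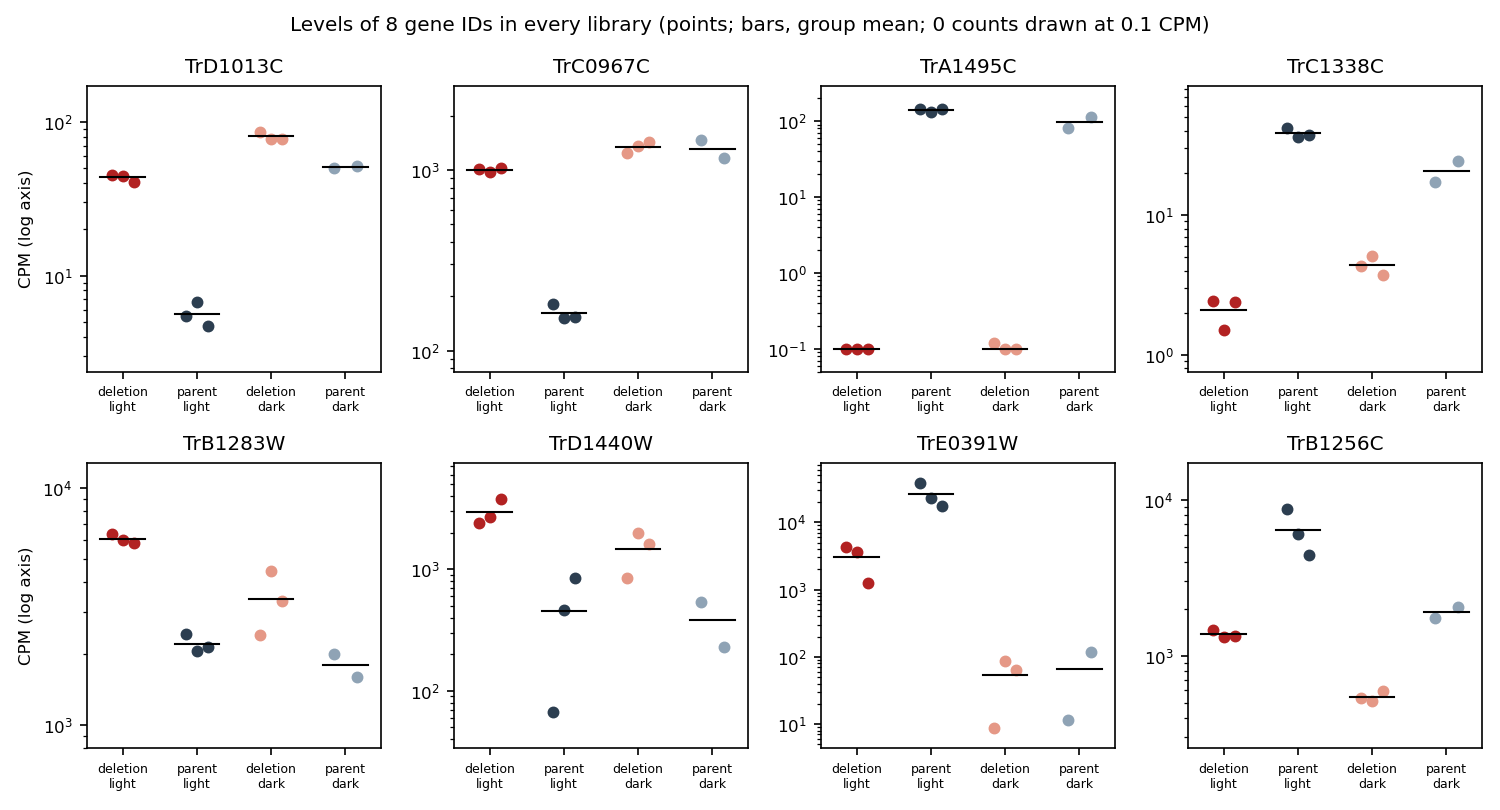
Points show CPM (log axis) in every library of the deletion strain and the parent, in light and in darkness, for 8 gene IDs, and bars show group means, with 0 counts drawn at 0.1 CPM. The IDs were chosen so that the strains do not overlap in light. TrC0967C is low in the parent in light alone, at a mean of 162 CPM against 1006 to 1345 CPM in the other groups.

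The largest difference in CPM was a decrease, in the ID with the most counts in light. TrE0391W had 4246, 3623 and 1271 CPM in the deletion libraries, against 38677, 22756 and 17210 CPM in the parent libraries. It took 0.463%, 0.395% and 0.137% of the counts in the deletion libraries, against 4.0%, 2.34% and 1.75% in the parent libraries. The ID was 8.60-fold lower in the deletion strain (log2 fold change -3.10, SE 1.0, edgeR adjusted p = 0.047). In darkness it stood at 53.1 ± 40.1 CPM in the deletion strain (SD, n = 3) and 65.2 ± 75.9 CPM in the parent (SD, n = 2). The effect in light minus that in darkness was -2.81 (SE 1.44, edgeR adjusted p = 0.247). The call was narrow, since the adjusted p was 0.0644 to 0.144 in edgeR when any single one of the 6 light libraries was left out, 0.0573 and 0.0628 without deletion replicates 2 and 3 in darkness, and missed the threshold in 11 of 22 alternatives in all. The log2 fold change was negative in each of the 22, between -3.42 and -2.71.

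TrB1256C, the passing ID with the next largest decrease in CPM, fell to 1460, 1314 and 1341 CPM in the deletion libraries, against 8703, 6048 and 4429 CPM in the parent libraries. The ID was 4.66-fold lower (log2 fold change -2.22, SE 0.22, edgeR adjusted p = 0.000149). It was lower in darkness too, at 545 ± 42.3 CPM in the deletion strain (SD, n = 3) and 1903 ± 236 CPM in the parent (SD, n = 2), and its effects in light and darkness differed by -0.42 (SE 0.31, edgeR adjusted p = 0.431).

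TrB1283W showed the largest increase in CPM among the IDs that passed. It reached 6379, 6045 and 5863 CPM in the deletion libraries, against 2427, 2063 and 2128 CPM in the parent libraries. It was 2.76-fold higher (log2 fold change 1.47, SE 0.20, edgeR adjusted p = 0.00094). In darkness it stood at 3409 ± 1039 CPM in the deletion strain (SD, n = 3) and 1801 ± 285 CPM in the parent (SD, n = 2), where it also rose (log2 fold change 0.92, SE 0.23, edgeR adjusted p = 0.031).

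TrD1440W had the next largest increase in CPM, at 2406, 2675 and 3768 CPM in the deletion libraries, against 67.3, 462 and 843 CPM in the parent libraries. The parent values spanned more than 10-fold, with replicate 1 lowest. The log2 fold change was 2.69 (SE 0.77, edgeR adjusted p = 0.0312). It was 2.18 without parent replicate 1 and 3.48 without parent replicate 3 in light, the lowest and highest over the alternatives. It did not pass in 7 of the 23 alternatives, including those without any single deletion library in light or without parent replicate 2 in light, at an edgeR adjusted p of 0.0553 to 0.0892. With only the 6 light libraries in the fit the edgeR adjusted p was 0.11.

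A larger difference in CPM did not pass. TrB1588C, singled out after its values were seen, had 5459, 5877 and 7687 CPM in the deletion libraries, against 169, 1314 and 2387 CPM in the parent libraries (log2 fold change 2.30, SE 0.85, edgeR adjusted p = 0.0754). Again the parent replicates lay far apart with replicate 1 lowest. Of the 20 IDs with the most counts in light, 2 rose, 4 fell and 14 did not pass. Thus 30% passed, against 27.0% of all tested IDs and 38.4% of the highest decile of level. Their median log2 fold change was -0.01.

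Some IDs had 0 counts in 1 strain in light. Among the tested IDs, 86 had 0 counts in the 3 parent libraries in light and at least 1 count in the deletion libraries. The converse held for 36. With the light libraries thinned to 8020351 counts each, the numbers were 86 and 41. Of the 86, 23 passed (26.7%, against 27.0% of all tested IDs and 11.5% of those in the lowest decile of level). These 23 stood at 0.162 to 18.5 CPM in the deletion strain with a median of 1.09 CPM. In darkness 22 of the 23 had counts in the parent, 7 of them at 5 CPM or more. Of the 36, 6 passed (16.7%), at 0.813 to 140.04 CPM in the parent, and each of the 6 had counts in the deletion strain in darkness. Both sets were chosen by a difference between the strains in light, so these shares are not results. With a wider definition, 17 rising IDs had a mean under 1 CPM in the parent and at least 10 CPM in the deletion strain, and 15 falling IDs had a mean under 1 CPM in the deletion strain and at least 10 CPM in the parent.

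More IDs were detected in the deletion strain. At a depth of 8020351 counts, averaged over 10 draws, 9590, 9557 and 9553 IDs had at least 1 count in the deletion libraries, against 9282, 9359 and 9257 in the parent libraries. The ranges did not overlap (difference 267, exact permutation test, two-sided, p = 0.10, the smallest that 3 against 3 can give). The counts were also spread more evenly. The 20 most abundant IDs of each library took 10.3%, 10.3% and 10.3% of the counts in the deletion libraries, against 13.7%, 11.3% and 10.9% in the parent libraries (exact permutation test, two-sided, p = 0.10, again the smallest possible). The difference of -1.63 percentage points was -0.77 without parent replicate 1, where TrE0391W alone took 4.0% of the counts.

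The replicates of the deletion strain were closer to each other than those of the parent. Over the 9040 tested IDs, the median SD of log2 CPM between replicates was 0.122 in the deletion strain and 0.183 in the parent, and the parent had the larger SD for 67.7% of the IDs. The size of this gap depended on parent replicate 1. Without it the median SD was 0.119 over 2 parent libraries, against 0.122 over 3 deletion libraries. SDs from unequal numbers of libraries are not directly comparable. Over 2 deletion libraries the median SD was 0.102, 0.114 and 0.078 without deletion replicates 1, 2 and 3. Among 7274 IDs of at least 5 CPM, 21 varied at least 4-fold between deletion libraries and 189 between parent libraries. The 21 became 12, 18 and 4 without deletion replicates 1, 2 and 3. In 170 of the 189, parent replicate 1 was the lowest parent library, and in 165, parent replicate 3 was the highest. The 189 became 8 without parent replicate 1, 187 without parent replicate 2 and 112 without parent replicate 3. Of the 189, 44 rose and 40 fell in the deletion strain, or 44.4%, against 29.1% of the 7274 IDs and 27.0% of all tested IDs.

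**Figure D4:**
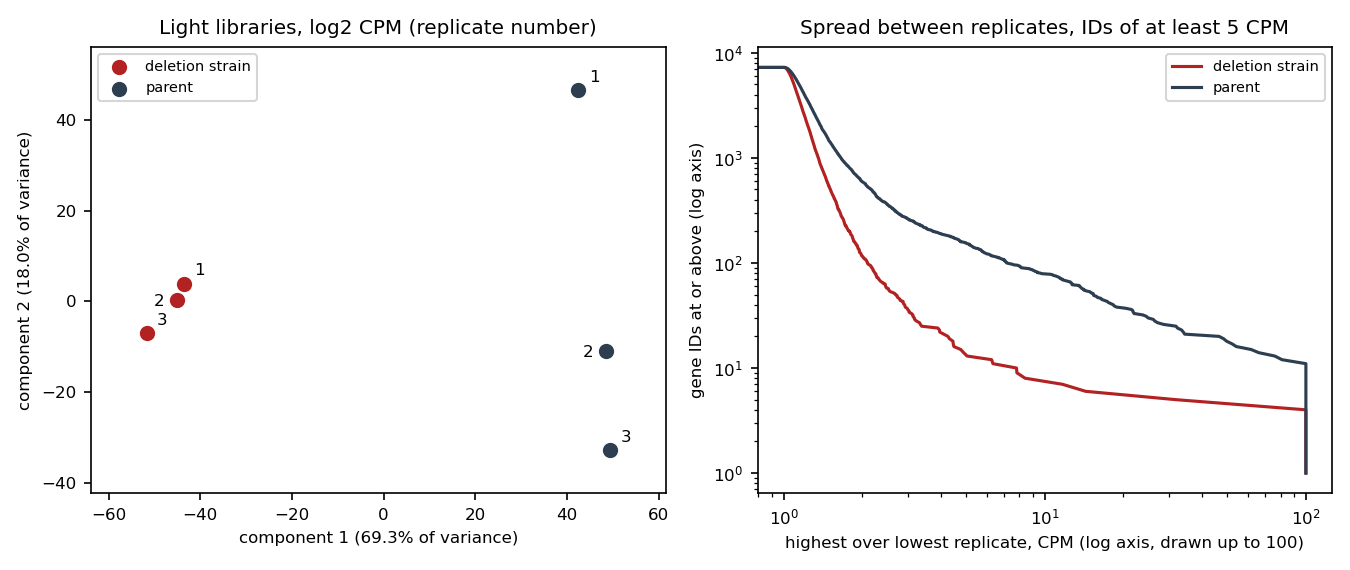
The left panel places the 6 light libraries on the first and second principal components of log2 CPM, with replicate numbers beside the points, and the right panel counts the gene IDs of at least 5 CPM whose highest replicate exceeds the lowest by a given factor (both axes log). Parent replicate 1 stands apart at 46.5 on the second component, and 189 IDs vary at least 4-fold in the parent against 21 in the deletion strain.

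The IDs carry 7 series letters, A to G, whose meaning the file does not state. The share of tested IDs that rose was 12% to 14.5% in series A to F and 19.3% in series G, where 190 of 986 rose and 108 fell, against 13.9% rising and 13.1% falling over all series. The share that fell was 11% in series G and 15.7% in series F, the lowest and highest of the 7. In series G the median log2 fold change was 0.03, against 0 over all tested IDs. Increases outnumbered decreases in series G in each of the 23 alternatives, but they did so over all tested IDs as well. Over the alternatives, 50.1% to 63.3% of all passing IDs were increases. The alternatives reuse the same libraries and series G was singled out as the highest of the 7, so they give no independent support. Of the IDs that rose, 428 (34%) had a neighbour in serial number that also rose, in 182 stretches of at least 2, and of the IDs that fell, 338 (28.5%) had one that also fell, in 150 stretches. Whether this exceeds what the overall shares of 13.9% and 13.1% would give was not tested. The longest unbroken stretches of one direction were E 10 to 15, where 6 IDs fell with a median log2 fold change of -3.05, and A 1529 to 1533, A 1901 to 1905 and G 355 to 359, where 5 IDs each rose. The 5 IDs of A 1529 to 1533 averaged 4.78 to 111 CPM in the deletion strain and 0 to 4.97 CPM in the parent, with 3 of them at 0 counts in the parent. The medians of the log2 fold change over A 1901 to 1905 and G 355 to 359 were 3.63 and 1.70.

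The IDs with changes of at least 2-fold in light were followed in darkness. The darkness levels did not enter the contrast that chose them, but the darkness libraries contributed to its filter, scaling and spread, and leaving out 1 darkness library gave 584 to 696 IDs rising and 388 to 483 falling. In darkness 1104 IDs (12.2%) passed. Of the 622 IDs that rose at least 2-fold, 153 also rose in darkness (24.6%, against 7.25% of all tested IDs) and 11 fell there. Their median log2 fold change was 1.93 in light and 0.60 in darkness. The sign in darkness was positive for 76.5% of them, against 50.9% of all tested IDs. Of the 415 that fell at least 2-fold, 71 also fell in darkness (17.1%, against 4.97%) and 18 rose there. Their median was -1.98 in light and -0.23 in darkness, with a negative sign in darkness for 59.5%, against 49.1% of all tested IDs. No library enters both contrasts, but both tests share 1 estimate of the spread for each ID. An ID with a small estimate passes more easily in both, so the shares passing in darkness are not independent of the choice.

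The genotype effect in light differed from that in darkness for 975 IDs (10.8%) by the interaction test in edgeR. Of these, 727 were among the 2445 that passed in light. They made up 29.7% of the 2445, against 3.76% of the IDs that did not pass in light. Both tests use the light libraries, so this share is a description. Of the 727, 379 rose and 348 fell in the deletion strain in light. The 727 became 461, 404 and 392 without deletion replicates 1, 2 and 3 in light, 433 without parent replicate 2 in light and 311 without parent replicate 1 in darkness, and the 975 became 617, 552, 549, 595 and 386.

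Among the IDs that rose at least 2-fold in light, 235 passed the interaction test. Their median level was 36.8 CPM in the deletion strain and 6.42 CPM in the parent in light, and 32.8 and 34.1 CPM in darkness. For the other 387 the medians were 8.79 and 2.05 CPM in light and 10.9 and 4.48 CPM in darkness. Among the IDs that fell at least 2-fold, 182 passed the interaction test, with medians of 7.43 CPM in the deletion strain and 39.5 CPM in the parent in light, and 14.7 and 13.1 CPM in darkness. The remaining 233 stood at 6.59 and 30.7 CPM in light and 10.7 and 21.4 CPM in darkness. Without deletion replicate 3 in light, the 235 became 158 and the 182 became 124. In both classes that passed, the parent in light was the group that stood apart. The interaction test takes in all 4 groups, so this pattern is partly fixed by the choice of the classes. In the labels the alignments of the light libraries are numbered apart from those of the darkness libraries. For levels, light condition and any library batch cannot be told apart, whereas each strain comparison lies within 1 light condition.

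**Figure D5:**
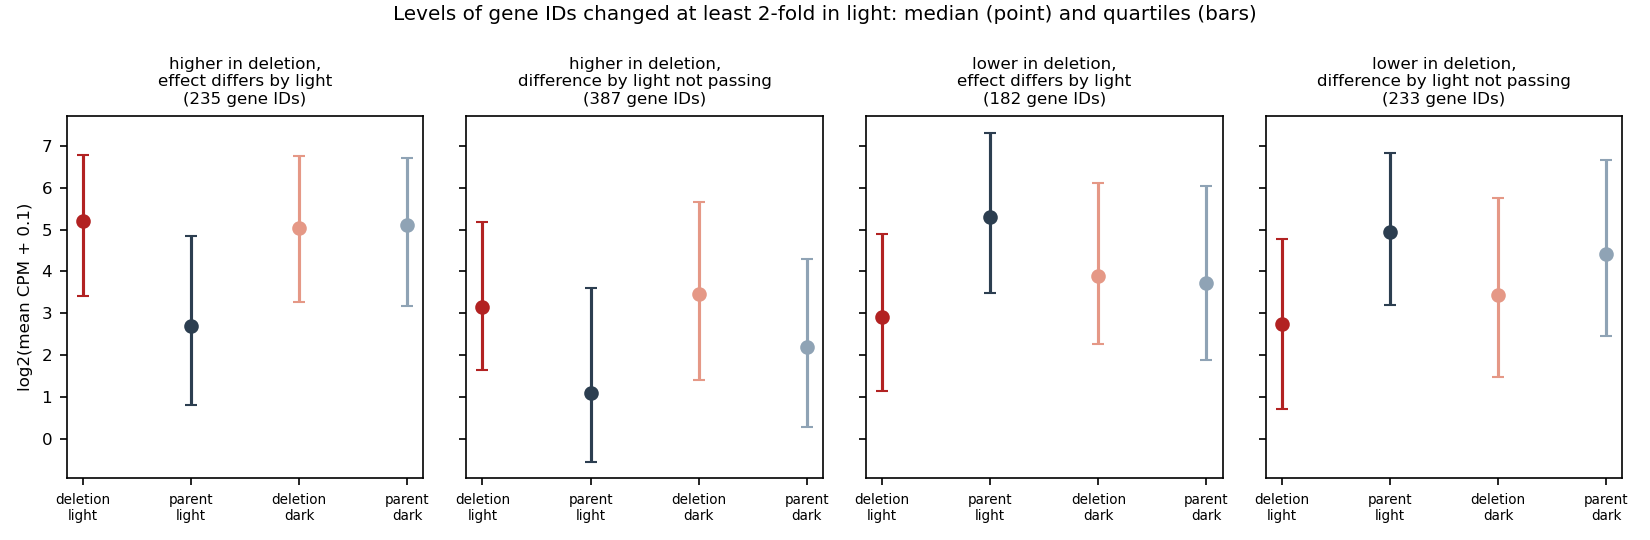
Points give the median and bars the quartiles of log2(mean CPM + 0.1) over gene IDs that changed at least 2-fold in light, in the deletion strain and the parent in light and in darkness. For the 235 rising and 182 falling IDs whose effect differed from that in darkness, the parent in light lies apart from the other groups, at medians of 6.42 and 39.5 CPM.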

How the data were processed

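The deposited values were raw counts per gene ID, whole numbers without normalization. Alignment used HISAT2 2.2.1, per the submitters' processing notes. How strand and multiply matching reads were treated in counting is not stated in the labels, so IDs that overlap or have near-identical copies are uncertain. Per the labels, libraries were stranded and depleted of ribosomal RNA. Each column was assigned to a sample through its alignment name, which the sample's description repeats.

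Low counts were removed by filterByExpr of edgeR 4.0.16 under R 4.3.3, leaving out at most 0.0283% of the counts of a light library, and libraries were scaled by TMM. All 11 libraries entered a robust quasi-likelihood fit of 4 group means, as in earlier processing of these data. Adjusted p-values cover all 9040 tested IDs. The SE is the log2 fold change divided by the square root of F. Log2 CPM used a prior count of 2. Floors are 3 counts and cover counting error only.

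IDs were named by rule: the 2 rising and 2 falling with the smallest adjusted p (ties by F) at a mean of at least 20 CPM and 2-fold, and the 2 and 2 with the largest difference of mean CPM, all with an adjusted p under 0.05 and ranges that do not overlap. The comparison, the rules and the alternatives were chosen with earlier results of these data known. Alternatives were other scalings and filters, DESeq2 1.42.0, voom in limma 3.58.1, a fit of the 6 light libraries, a replicate block, omission of the 20 most abundant IDs, a test against a 2-fold change, thinning and omission of each library. The test was checked on simulated counts. It recovered 43% of the changes of size 1 on the log2 scale and 100% of those of size 2. Of its calls, 13 were false, or 8.33%, more than the threshold of 0.05 allows. No 2 replicates in light agreed within sampling noise (chi-square per degree of freedom at least 3.80).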

Additional observations from a re-analysis of the deposited data

Results flagged for a closer look

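The genotype effect in light differed from that in darkness by the interaction test for 727 of the gene IDs that passed in light. This was 29.7% of them, against 10.8% of all tested IDs, and both tests use the light libraries. The effect also differed for 3 of the 8 named IDs. The log2 interaction was 2.30 for TrD1013C, 2.61 for TrC0967C and -1.94 for TrC1338C (edgeR adjusted p = 0.000241, 0.000159 and 0.0053). Each passed the interaction test in all 20 alternatives run for it, with the adjusted p at most 0.0261. The alternatives reuse the libraries in which these IDs were picked out, so they give no independent support. The other 5 named IDs did not pass the interaction test in edgeR, which does not show that their effects were alike in light and darkness.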

How the results depend on the processing

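The number passing in light (2445) stayed within 1.5 times in 20 of 23 alternatives. The test against a 2-fold change gave 365, with 222 rising and 143 falling. Leaving out 1 library gave 1449 to 3055 passing, 791 to 1589 rising and 658 to 1466 falling, and 386 to 1175 for the interaction, which was 1532 with DESeq2. DESeq2 passed 2853 in light, 2430 of them among the 2445. The number passing with at least 2-fold change stayed within 1.5 times in all 22 alternatives. The ratio of the median replicate SD in the deletion strain to that in the parent (0.669) was 0.429 to 1.03 with 1 library omitted. The 1.03 came without parent replicate 1. These ratios set 2 libraries of 1 strain against 3 of the other, so they cannot show whether the order reversed. With 2 libraries the median SD was 0.078 to 0.114 in the deletion strain, and 0.119 in the parent without replicate 1. TrB1283W missed the threshold in the test against a 2-fold change (edgeR adjusted p = 0.0984). Same-numbered light libraries of the strains deviated together at r = 0.16, 0.00 and 0.16, against -0.17 to 0.05 for other pairs. Deletion replicates 1 and 3 thus deviated most with their own number, whereas deletion replicate 2 correlated best with parent replicate 1. The numbers are not known to pair libraries, and the main test used no pairing. With the replicate block, and only the 6 light libraries, 2759 passed, against 2936 without the block. The omission of libraries for the 4-fold replicate range, the thinning for IDs at 0 counts and the alternatives for the interaction of single or jointly passing IDs were chosen after seeing the data. Depth limits IDs below about 0.364 CPM, the level of 3 counts in the shallowest light library.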
